A study of Mus musculus with 82 samples.

Results

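Mfsd11, Pim1, Stx3, Gas2l3, Slc20a1, Gnpda1, Tifa, Rhoq, St3gal4 and Uap1l1 are 10 of the 18193 mouse genes measured. They were chosen on their response to the AMPK activator 991: each was called higher with 991 in wild-type (WT) cells, and called for a larger change in WT than in AMPK double-knockout (dKO) cells, in embryonic fibroblasts and in primary hepatocytes alike. A gene is called when its limma p-value, after Benjamini-Hochberg adjustment across the genes tested, is under 0.05. In all, 24 genes met these 4 conditions, and the other 14, which include Flcn, Fnip2, Neu1 and Insig1, are not described here. The values for 991 that chose the genes are therefore given as a description, with no test. The members have 21 probe sets on the array, and 1 further probe set that names a member beside another gene was left out.

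RNA from C57BL/6 mouse cells was hybridised to Affymetrix arrays. Mouse embryonic fibroblasts (MEFs) were control, called WT here, or dKO, which lack both catalytic AMPK subunits (AMPK alpha1-/- alpha2-/-). They received DMSO vehicle, 10 µM 991 or 2 mM AICAR for 4 h. Each MEF group has 4 arrays, apart from WT with 991, which has 3. Primary hepatocytes, also labelled WT or dKO, were isolated by collagenase perfusion and kept in dexamethasone. They received vehicle, 3 µM 991 or 300 µM AICAR for 4 h. Each hepatocyte group holds 2 replicates of 5 arrays each, apart from dKO with vehicle, which has 9 arrays in all. These replicates are told apart by a suffix in the sample titles and are called preparations here. Doses differ between the cell types, so sizes of response are set side by side and not tested against each other.

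The labels name the MEF arrays technical replicates and give no biological replicate, so MEF p-values measure only the spread between these arrays, and the genotype cannot be told apart from the MEF line that carries it. The median log2 value of an array ran from 6.158 to 6.246 for MEFs and from 5.877 to 6.078 for hepatocytes, and no arrays were identical. All 8 hepatocyte markers, such as Alb and Apob, lay above the median gene in hepatocytes, and 0 of 8 did in MEFs. Of the 8 fibroblast markers, 7 lay above it in MEFs, with Thy1 at 5.51 below it. Of the 8 Kupffer cell markers, 7 lay above it in the hepatocyte arrays. Since cells were measured in bulk, fewer cells of a type and less RNA per cell cannot be told apart.

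AMPK is a kinase complex that senses a fall in cellular energy charge, turns off anabolic pathways and turns on catabolic ones. The compound 991 binds the complex directly, at the allosteric drug and metabolite site between the alpha and beta subunits. AICAR is taken up and phosphorylated to ZMP, a mimic of AMP that also acts on other AMP-sensitive enzymes. The members have unlike roles: in hexosamine and sialic acid metabolism (Gnpda1, Uap1l1, St3gal4), in transport and membrane traffic (Slc20a1, Mfsd11, Stx3, Rhoq), in signalling (Pim1, Tifa) and in the cytoskeleton (Gas2l3).

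With 991, Stx3, which encodes a membrane fusion protein, had the largest rise of the members in each WT cell type, at 0.68 ± 0.05 (SE) on the log2 scale in MEFs and 0.94 ± 0.12 in hepatocytes. That is 1.60-fold and 1.92-fold. Next in hepatocytes came the hexosamine enzyme gene Gnpda1 (1.84-fold) and the phosphate transporter gene Slc20a1 (1.81-fold), and next in MEFs the cytoskeletal gene Gas2l3 (1.49-fold). The median log2 change of the 10 was 0.38 in WT MEFs and 0.70 in WT hepatocytes, where the median of all genes was near 0 and 0.033. In dKO cells the median of the 10 was 0.02 in each cell type. Over all genes, 14.0% were called higher and 5.65% lower in WT MEFs, and 3.72% higher and 2.36% lower in WT hepatocytes. For the difference between genotypes these shares were 4.37% higher and 0.912% lower in MEFs, and 0.330% higher and 0.0824% lower in hepatocytes. In dKO cells 1.88% were called higher and 1.58% lower in MEFs, and 0% higher and 0.00550% lower in hepatocytes. Gas2l3 was the member called in dKO MEFs with 991, and no member was called in dKO hepatocytes by limma, where 2 of the 10 and 819 of all genes had an unadjusted p under 0.05.

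**Figure D1:**
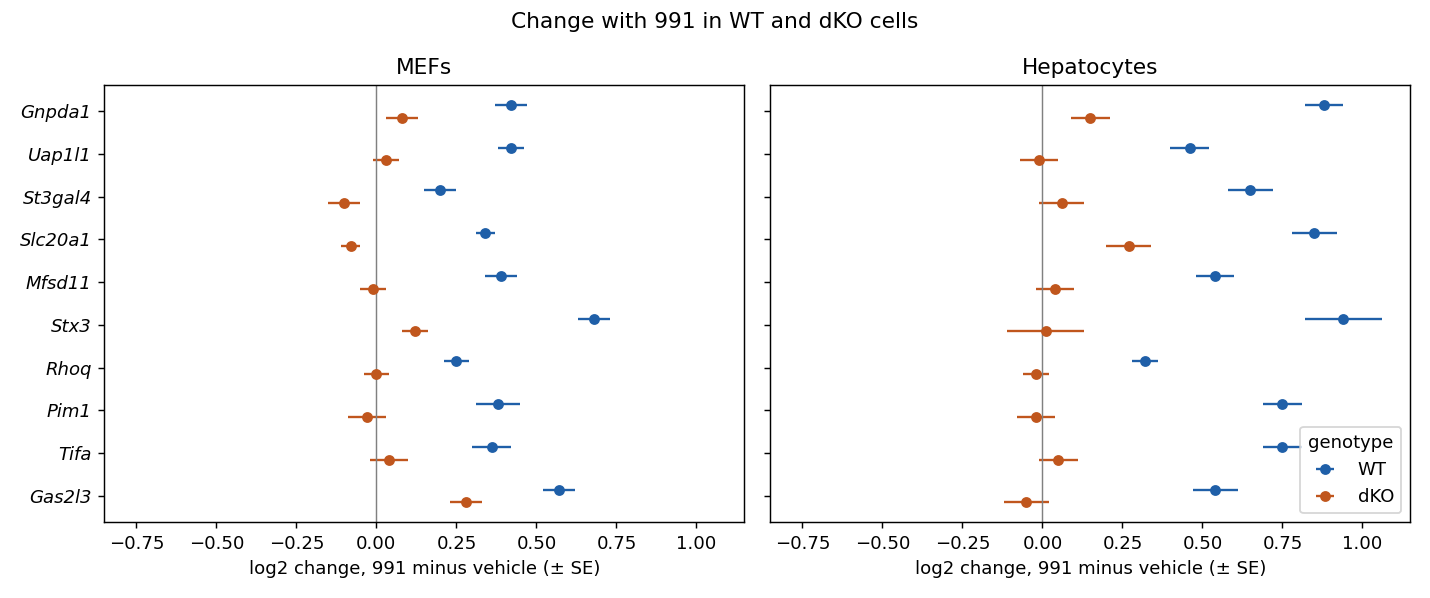
Log2 change with 991 against vehicle (x axis, ± SE) of each member in WT and dKO cells, for MEFs and hepatocytes. MEF values run from 0.20 to 0.68 in WT and from -0.10 to 0.28 in dKO, and hepatocyte values from 0.32 to 0.94 and from -0.05 to 0.27.

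Nearest to the threshold among the members were Tifa, whose 991 effect was 0.31 ± 0.08 larger in WT than in dKO MEFs, and Uap1l1, with a difference of 0.47 ± 0.08 in hepatocytes. Just outside lay Piga, with 0.20 ± 0.06 in MEFs, and Bhlhe40, with 0.37 ± 0.07 in hepatocytes. The hepatocyte difference was the narrowest condition: 126 genes failed it alone, against 6 for the MEF difference. Under quantile normalization 7 of the 10 stayed called for the MEF difference, and Gnpda1, Tifa and St3gal4 were lost. Without technical replicate 2 of WT with 991, 7 stayed called, and Pim1, Tifa and St3gal4 were lost. With the mean of all probe sets 8 stayed called, and Mfsd11 and Pim1 were lost. The hepatocyte difference also depended on the 4 preparations. Without any 1 of WT preparation 1, WT preparation 2, dKO preparation 1 or dKO preparation 2, between 0 and 3 of the 10 stayed called for it, and without the preparation block 0 did, while each member kept a positive difference in all of these fits. The rise in WT hepatocytes was called for 6 of the 10 without WT preparation 2, where Mfsd11, Stx3, Gas2l3 and Uap1l1 were lost, and for 6 of the 10 without the preparation block, where Mfsd11, Slc20a1, Rhoq and Uap1l1 were lost.

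Gnpda1 encodes a glucosamine-6-phosphate deaminase, which turns an intermediate of hexosamine synthesis back into fructose-6-phosphate. Its 4 WT MEF vehicle arrays read 8.24, 8.34, 8.24 and 8.28, and the 3 arrays with 991 read 8.78, 8.66 and 8.65. The arrays with 991 all lay above those with vehicle. In dKO MEFs the vehicle arrays read 8.05, 7.95, 8.10 and 7.96 and the 991 arrays 8.17, 8.11, 8.01 and 8.08, so that these groups overlapped. The change with 991 was 0.42 ± 0.05 in WT and 0.08 ± 0.05 in dKO. WT hepatocytes ran from 8.69 over a median of 8.79 to 8.84 with vehicle and from 9.47 over 9.69 to 9.78 with 991. In dKO hepatocytes the vehicle arrays ran from 8.50 over 8.58 to 8.67 and the 991 arrays from 8.66 over 8.73 to 8.86. The WT groups were far apart, by 0.88 ± 0.06, and the dKO groups met at their edges, with a difference of 0.15 ± 0.06 that was 0.15 in each preparation. The 2 WT preparations rose by 0.80 and 0.96.

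Uap1l1 encodes a protein much like UAP1, the pyrophosphorylase that completes UDP-N-acetylglucosamine. Its WT MEF arrays lay between 9.11 and 9.26 with vehicle and between 9.60 and 9.64 with 991. Its dKO MEF arrays lay between 9.25 and 9.32 with vehicle and between 9.28 and 9.33 with 991, and overlapped. The rise was 0.42 ± 0.04 in WT and the change in dKO 0.03 ± 0.04. In WT hepatocytes the arrays ran from 8.98 over a median of 9.05 to 9.34 with vehicle and from 9.40 over 9.61 to 9.69 with 991, with no overlap. dKO hepatocytes had a lower level to begin with, from 7.30 over 7.73 to 7.79 with vehicle, and from 7.21 over 7.71 to 7.79 with 991. The changes were 0.46 ± 0.06 in WT and -0.01 ± 0.06 in dKO. A second probe set for Uap1l1, 1443841_x_at, had a mean of 3.99 in MEFs and 3.29 in hepatocytes, and changed with 991 by 0.30 ± 0.11 in WT MEFs and 0.21 ± 0.09 in WT hepatocytes.

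St3gal4 encodes a Golgi sialyltransferase that caps the galactose ends of glycans with sialic acid. It had the smallest rise of the members in WT MEFs, where the arrays read 8.03, 8.18, 8.08 and 8.12 with vehicle and 8.36, 8.31 and 8.25 with 991. The groups did not overlap, but the highest vehicle array and the lowest 991 array were close. The dKO MEF arrays lay between 7.77 and 7.95 with vehicle and between 7.67 and 7.81 with 991. The change was 0.20 ± 0.05 in WT and -0.10 ± 0.05 in dKO. Under quantile normalization the WT value fell to 0.10 and was no longer called. The difference between WT and dKO, 0.19, was not called there either. In WT hepatocytes the arrays ran from 9.41 over a median of 9.57 to 9.74 with vehicle and from 10.12 over 10.19 to 10.36 with 991, a rise of 0.65 ± 0.07. The dKO hepatocyte arrays ran from 9.42 over 9.54 to 9.63 with vehicle and from 9.47 over 9.62 to 9.69 with 991, and overlapped. For St3gal4, vehicle levels of the 2 hepatocyte genotypes lay side by side, with means of 9.57 ± 0.13 (SD, n = 2) in WT and 9.54 ± 0.11 (SD, n = 2) in dKO.

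**Figure D2:**
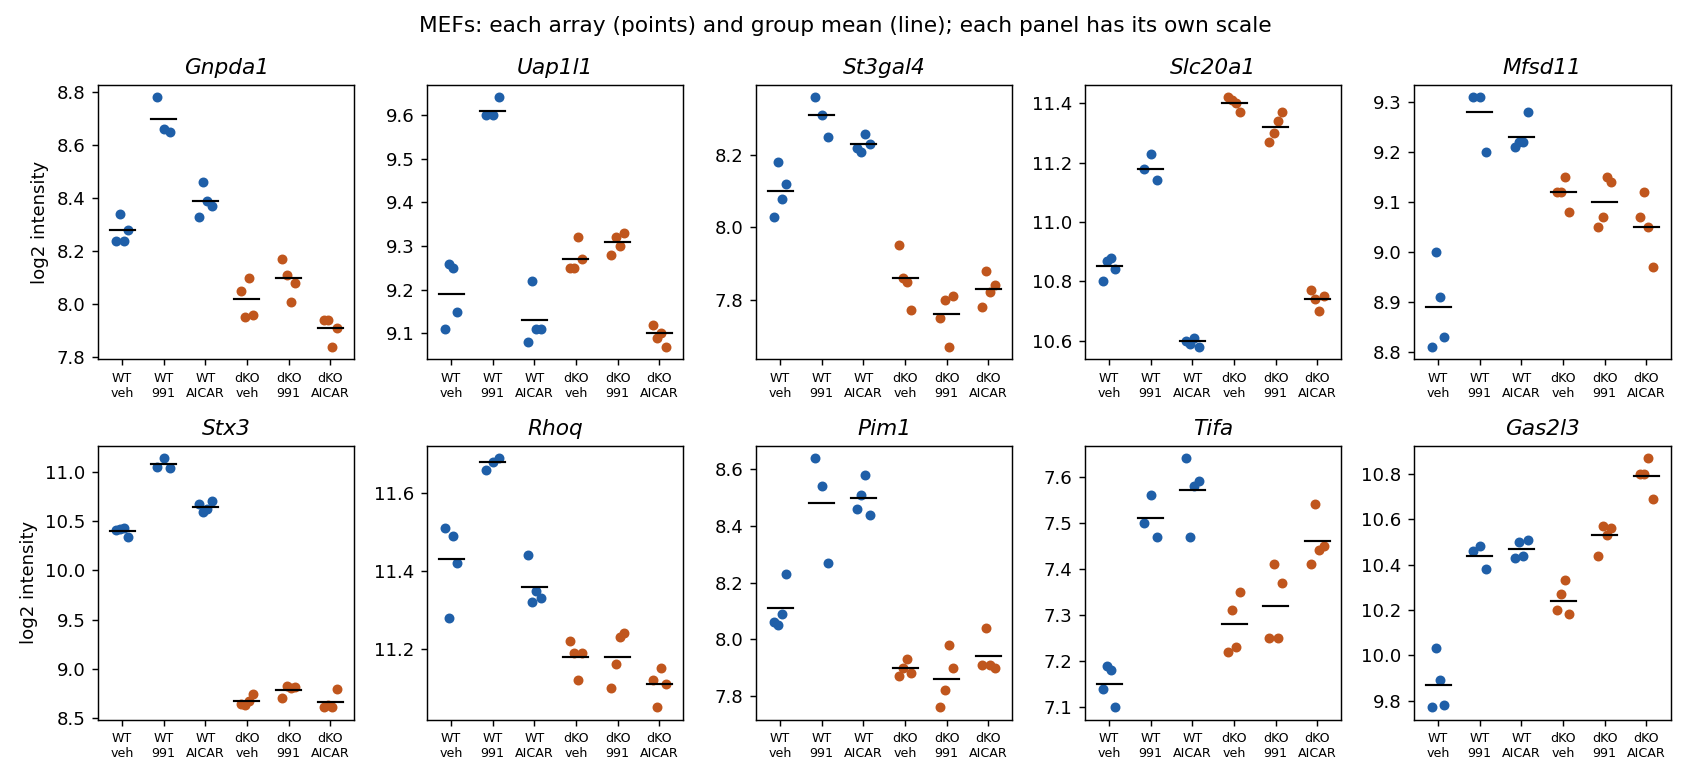
Log2 intensity (y axis, a scale of its own in each panel) of each member in every MEF array, by genotype and treatment, with the group mean as a line. The WT arrays with 991 lie above the WT vehicle arrays in all 10 panels.

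Slc20a1 encodes PiT-1, a sodium-dependent phosphate transporter of the plasma membrane. Its WT MEF arrays read 10.80, 10.87, 10.88 and 10.84 with vehicle and 11.18, 11.23 and 11.14 with 991. Its dKO MEF arrays read 11.42, 11.41, 11.40 and 11.37 with vehicle and 11.27, 11.30, 11.34 and 11.37 with 991. The WT arrays with 991 lay above vehicle, while the dKO arrays with 991 lay at or below it, and dKO MEFs with vehicle already read above WT MEFs with 991. The changes were 0.34 ± 0.03 in WT and -0.08 ± 0.03 in dKO, and under quantile normalization the latter was -0.10 and called lower, which made the count in dKO MEFs 1 higher and 1 lower.

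In hepatocytes Slc20a1 differed widely between preparations. The vehicle means were 11.45 and 10.73 in the 2 WT preparations and 10.49 and 11.16 in the 2 dKO preparations. With 991 they were 12.15 and 11.73 in WT and 10.78 and 11.41 in dKO. Each preparation rose against its own vehicle, by 0.71 and 1.00 in WT and by 0.29 and 0.25 in dKO. The dKO value, 0.27 ± 0.07, was the largest of the members in that genotype. Of the 3 Slc20a1 probe sets, 1448568_a_at, which stands for the gene, read 11.11 on average in hepatocytes, and 1438824_at read 5.51 and rose by 1.01 ± 0.21 in WT with 991. The third, 1446441_at, averaged 5.11 in MEFs, where it changed by -0.22 ± 0.10 in WT with 991.

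Promoter windows from RefSeq (build GRCm38.p6), which run from 250 bases before a listed transcription start to 50 after it, were searched for known sites. That all members rise with 991 follows from how they were chosen. The table holds 12 windows for 8 of the 10 members. The letters CACGTG, the E-box, read the same on both strands and are the core of sites bound by basic helix-loop-helix zipper factors such as MYC, USF and TFEB. They stand in 2 of the 12 windows, 1 of Slc20a1 and 1 of Pim1, and in 7.15% of all 32851 windows. TCACGTGA, an E-box with the flanks that TFEB is known to favour, is in 0.974% of all windows and in 0 of the 12. Both flanks were required for a match. The Pim1 E-box and the Slc20a1 E-box nearer the start have the T before but not the A after. How many windows hold an E-box with a single flank was not counted. The cAMP response element TGACGTCA is in 1.79% of all and in 0 of the 12, and the forkhead site TGTTTAC, searched on both strands, in 3.65% of all and in 1 of the 12, that of Pim1. The part of the Slc20a1 window before the start, chr2:129198523-129198772 on the plus strand, is shown because it holds 2 E-boxes, which begin 175 and 22 bases before the start and are in capitals.
Slc20a1: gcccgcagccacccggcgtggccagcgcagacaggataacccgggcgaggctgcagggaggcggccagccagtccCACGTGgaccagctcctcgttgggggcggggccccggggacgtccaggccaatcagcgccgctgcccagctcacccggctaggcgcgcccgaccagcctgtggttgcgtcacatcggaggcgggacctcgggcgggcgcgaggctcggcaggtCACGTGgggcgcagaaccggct

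Mfsd11 encodes an UNC93-like protein of the major facilitator superfamily of membrane transporters. WT MEFs read 8.81, 9.0, 8.91 and 8.83 with vehicle and 9.31, 9.31 and 9.20 with 991, without overlap. dKO MEFs read 9.12, 9.12, 9.15 and 9.08 with vehicle and 9.05, 9.07, 9.15 and 9.14 with 991. The dKO groups lay within each other, and the changes were 0.39 ± 0.05 in WT and -0.01 ± 0.04 in dKO. WT hepatocytes ran from 8.81 over a median of 9.05 to 9.29 with vehicle and from 9.46 over 9.58 to 9.72 with 991. Those of dKO ran from 8.48 over 8.85 to 8.92 with vehicle and from 8.65 over 8.82 to 8.98 with 991. The WT rise, 0.54 ± 0.06, was present in both preparations, at 0.48 and 0.59, and the dKO preparations changed by 0.04 and 0.05. The other probe sets for Mfsd11 disagreed with each other: 1457836_at rose by 0.32 ± 0.08 in WT MEFs and 0.41 ± 0.11 in WT hepatocytes, and 1427815_at, with a mean of 6.05 in MEFs, changed by -0.11 ± 0.10 and 0.15 ± 0.07. The WT effect of 991 minus the dKO effect in MEFs was 0.23 ± 0.11 for 1457836_at and -0.24 ± 0.14 for 1427815_at. With the mean of all probe sets Mfsd11 was no longer called for that difference, at 0.13 in MEFs and 0.39 in hepatocytes.

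Stx3 encodes syntaxin 3, a SNARE protein of the plasma membrane that serves apical exocytosis in epithelial cells. In WT MEFs its arrays read 10.41, 10.42, 10.43 and 10.34 with vehicle and 11.05, 11.14 and 11.04 with 991. In dKO MEFs they read 8.64, 8.63, 8.67 and 8.75 with vehicle and 8.70, 8.83, 8.81 and 8.82 with 991. All dKO arrays lay far below all WT arrays, and the dKO groups overlapped in 1 array. Changes with 991 were 0.68 ± 0.05 in WT and 0.12 ± 0.04 in dKO. WT hepatocytes ran from 9.86 over a median of 10.09 to 10.21 with vehicle and from 10.77 over 11.03 to 11.30 with 991, and the 2 preparations rose by 0.84 and 1.04. dKO hepatocytes ran from 9.54 over 9.67 to 9.77 with vehicle and from 9.56 over 9.66 to 9.91 with 991, a change of 0.01 ± 0.12. All 4 probe sets for Stx3 had positive WT changes with 991, from 0.61 ± 0.09 to 0.82 ± 0.08 in MEFs and from 0.66 ± 0.10 to 0.94 ± 0.12 in hepatocytes.

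Rhoq encodes TC10, a small GTPase of lipid rafts that takes part in insulin-stimulated movement of glucose transporters. Its rise was among the smallest of the members. WT MEF arrays read 11.51, 11.28, 11.49 and 11.42 with vehicle and 11.66, 11.68 and 11.69 with 991. The 3 arrays with 991 were tightly grouped above the more scattered vehicle arrays. dKO MEF arrays lay between 11.12 and 11.22 with vehicle and between 11.10 and 11.24 with 991, in 1 range. The change was 0.25 ± 0.04 in WT MEFs and 0.00 ± 0.04 in dKO MEFs. WT hepatocyte arrays ran from 11.73 over a median of 11.87 to 12.06 with vehicle and from 11.99 over 12.19 to 12.37 with 991. These ranges overlapped, and preparation 1 read higher than preparation 2 under each treatment. Against its own vehicle, preparation 1 rose by 0.34 and preparation 2 by 0.31, while the dKO preparations changed by 0.00 and -0.05. The dKO hepatocyte arrays ran from 11.39 over 11.74 to 11.82 with vehicle and from 11.43 over 11.59 to 11.77 with 991.

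**Figure D3:**
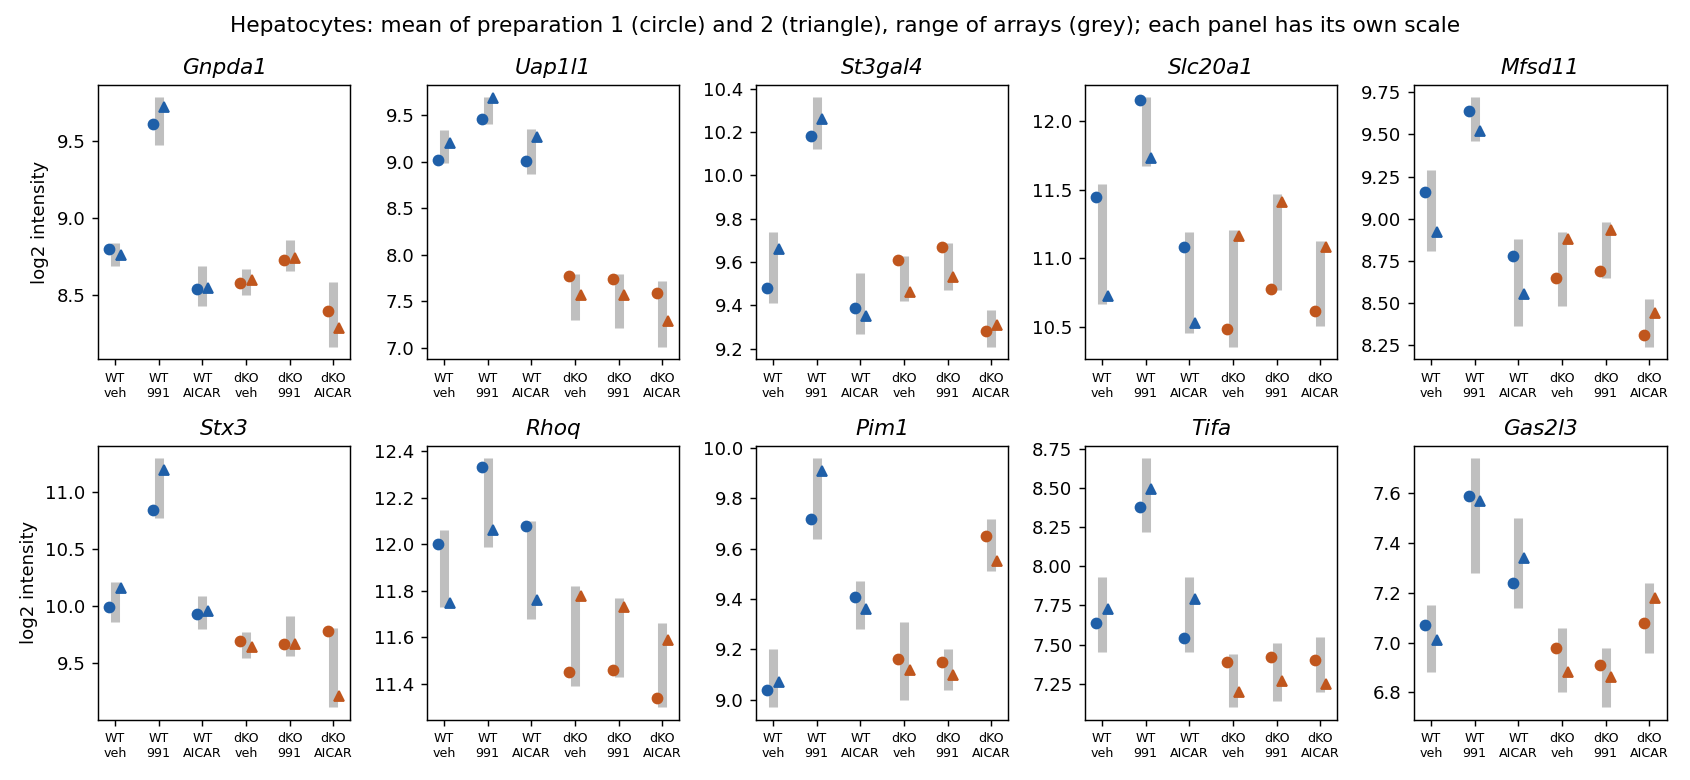
Log2 intensity (y axis, a scale of its own in each panel) of each member in hepatocytes: the mean of preparation 1 (circle) and of preparation 2 (triangle) and the range of all arrays (grey bar). In WT both preparations lie higher with 991 than with vehicle in all 10 panels, and in Slc20a1 and Rhoq the preparations differ more than some treatments do.

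Pim1 encodes a serine/threonine kinase that is active as made, so that its level sets its activity, and that promotes survival downstream of STAT signalling. WT MEFs read 8.06, 8.05, 8.09 and 8.23 with vehicle and 8.64, 8.54 and 8.27 with 991. The groups were just separate, since the fourth vehicle array, 8.23, and the last 991 array, 8.27, nearly met. dKO MEFs read 7.87, 7.90, 7.93 and 7.88 with vehicle and 7.76, 7.82, 7.98 and 7.90 with 991, in 1 range. Changes were 0.38 ± 0.07 in WT and -0.03 ± 0.06 in dKO. WT hepatocytes ran from 8.97 over a median of 9.06 to 9.20 with vehicle and from 9.64 over 9.81 to 9.96 with 991, and rose by 0.67 and 0.83 in the 2 preparations. In dKO hepatocytes the vehicle arrays ran from 9.0 over 9.12 to 9.31 and the 991 arrays from 9.04 over 9.13 to 9.20, a change of -0.02 ± 0.06. The second Pim1 probe set, 1423006_at, rose by 0.55 ± 0.08 in WT hepatocytes, and in MEFs by 0.26 ± 0.08 in WT and 0.20 ± 0.08 in dKO, so that in MEFs the 2 probe sets differed in the genotype difference, 0.41 ± 0.09 against 0.06 ± 0.11. The bases before the Pim1 start whose window holds both an E-box and a forkhead site, chr17:29492835-29493084 on the plus strand, are shown for that reason. The capitals mark GTAAACA, the forkhead site on the opposite strand, 70 bases before the start, and the E-box 58 bases before it.
Pim1: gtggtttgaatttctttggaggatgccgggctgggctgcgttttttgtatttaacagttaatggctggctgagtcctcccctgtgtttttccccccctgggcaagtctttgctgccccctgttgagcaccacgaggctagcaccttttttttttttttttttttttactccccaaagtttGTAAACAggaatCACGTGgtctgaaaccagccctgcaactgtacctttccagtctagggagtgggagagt

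Tifa encodes an adaptor with a forkhead-associated domain that joins the sensing of bacterial sugars by the kinase ALPK1 to TRAF6 and NF-kB. Its WT MEF arrays read 7.14, 7.19, 7.18 and 7.10 with vehicle and 7.50, 7.56 and 7.47 with 991. Its dKO MEF arrays read 7.22, 7.31, 7.23 and 7.35 with vehicle and 7.25, 7.41, 7.25 and 7.37 with 991. Only the WT groups were apart, by 0.36 ± 0.06, with a change of 0.04 ± 0.06 in dKO. In WT hepatocytes the arrays ran from 7.45 over a median of 7.71 to 7.93 with vehicle and from 8.22 over 8.41 to 8.69 with 991. The dKO hepatocyte arrays ran from 7.10 over 7.28 to 7.44 with vehicle and from 7.14 over 7.36 to 7.51 with 991. The WT preparations rose by 0.74 and 0.76, and the dKO preparations, whose arrays overlapped, differed from vehicle by 0.03 and 0.06.

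Gas2l3 encodes a protein that links actin and microtubules and takes part in cytokinesis. WT MEFs read 9.77, 10.03, 9.89 and 9.78 with vehicle and 10.46, 10.48 and 10.38 with 991. dKO MEFs read 10.20, 10.27, 10.33 and 10.18 with vehicle and 10.44, 10.57, 10.53 and 10.56 with 991. In each genotype the arrays with 991 lay above vehicle, by 0.57 ± 0.05 in WT and 0.28 ± 0.05 in dKO, the largest dKO value of the members in MEFs. The hepatocyte arrays ran from 6.88 over a median of 7.05 to 7.15 in WT with vehicle and from 7.28 over 7.61 to 7.74 with 991. Those of dKO ran from 6.80 over 6.90 to 7.06 with vehicle and from 6.74 over 6.89 to 6.98 with 991. Only the WT groups were apart, with a change of 0.54 ± 0.07 in WT and -0.05 ± 0.07 in dKO. The Gas2l3 probe set 1453416_at rose by 0.46 ± 0.04 in WT and 0.32 ± 0.04 in dKO MEFs, and by 0.82 ± 0.07 in WT hepatocytes. The third, 1455980_a_at, rose by 0.70 ± 0.07, 0.27 ± 0.07 and 0.47 ± 0.10.

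AICAR, the other activator, was not used to choose the members, although its comparisons share the vehicle arrays with those of 991. In WT MEFs it raised Gas2l3, Tifa, Pim1, Mfsd11 and Stx3 and lowered Slc20a1. That is 5 members called higher and 1 lower, beside 19.6% and 15.5% of all genes. In dKO MEFs, Gas2l3 and Tifa were called higher and Slc20a1 and Uap1l1 lower, beside 20.4% and 19.8% of all genes. In hepatocytes AICAR raised Pim1 and Gas2l3 and lowered Mfsd11, Slc20a1 and Gnpda1 in WT, which makes 2 higher and 3 lower against 8.51% and 7.99% of all genes. In dKO hepatocytes Pim1 was called higher and Mfsd11, Gnpda1, Rhoq, St3gal4 and Uap1l1 lower, 1 and 5 members against 10.5% and 7.31% of all genes. The median log2 change of the 10 with AICAR was 0.18 in WT and -0.05 in dKO MEFs, and -0.08 in WT and -0.16 in dKO hepatocytes, where those of all genes were -0.011, -0.017, 0.042 and 0.037. Under quantile normalization the WT MEF counts were 6 higher and 3 lower, where 6257 of all 18193 genes were called. Of the 8 fibroblast markers, 5 were called lower with AICAR in WT MEFs, where their mean per gene lay between 11.14 and 11.20, below the vehicle range of 11.37 to 11.42, and 3 were called higher and 5 lower in dKO MEFs. Their part in the AICAR changes was not tested.

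**Figure D4:**
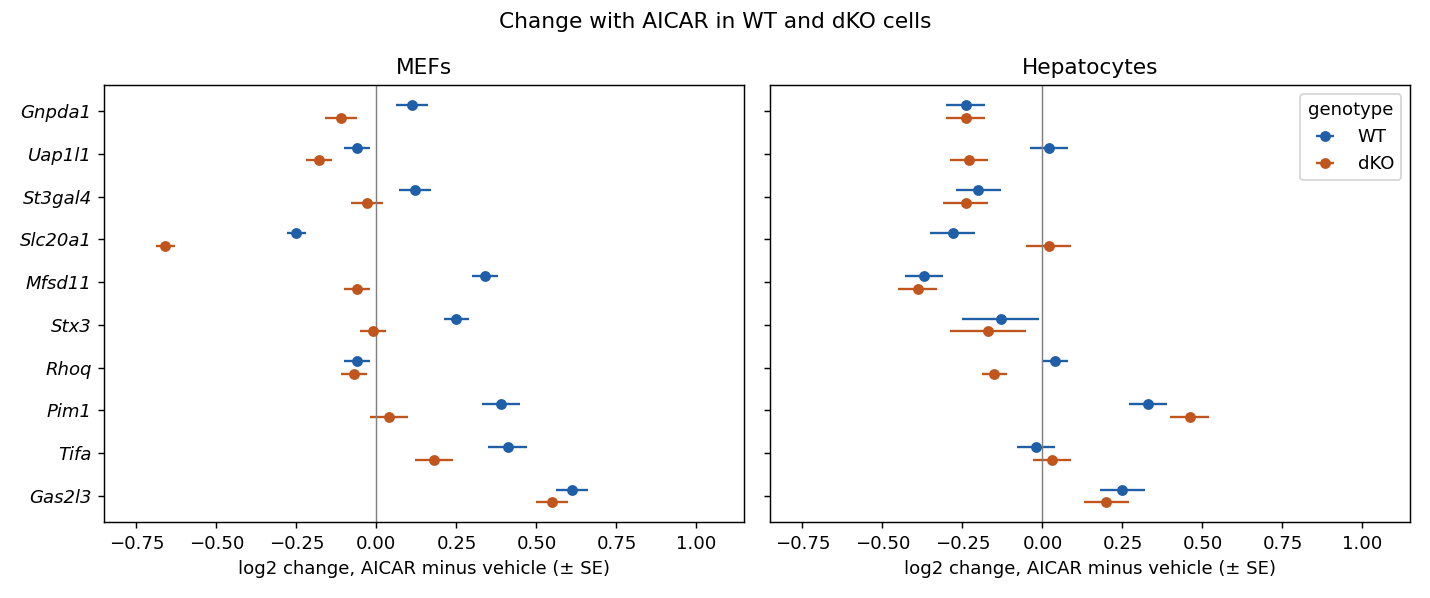
Log2 change with AICAR against vehicle (x axis, ± SE) of each member in WT and dKO cells, for MEFs and hepatocytes. In MEFs Mfsd11, Pim1 and Stx3 lie to the right of 0 in WT and near 0 in dKO, and in hepatocytes the WT and dKO values of Mfsd11 (-0.37 and -0.39) and Gnpda1 (-0.24 and -0.24) lie together.

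Whether the AICAR effect depended on genotype was tested as the WT effect minus the dKO effect. In MEFs it was called larger for 5 of the 10 and smaller for 0, where 7.93% of all genes were called larger and 4.18% smaller. The members were chosen on a positive 991 difference that takes in the same vehicle arrays, and this favours positive values here. These counts and p-values are therefore not independent of that choice. Mfsd11 arrays read 9.21, 9.22, 9.22 and 9.28 with AICAR in WT MEFs, all above vehicle, and 9.07, 9.12, 9.05 and 8.97 in dKO MEFs, which overlapped vehicle. Its change was 0.34 ± 0.04 in WT and -0.06 ± 0.04 in dKO, a difference of 0.41 ± 0.06 (limma, adjusted p = 1.71e-05). Pim1 read 8.46, 8.51, 8.58 and 8.44 with AICAR in WT MEFs and 7.91, 8.04, 7.91 and 7.90 in dKO MEFs. All WT arrays lay above vehicle, and in dKO the array at 8.04 did. The changes were 0.39 ± 0.06 and 0.04 ± 0.06, a difference of 0.35 ± 0.09 (adjusted p = 0.00877). The second Pim1 probe set, 1423006_at, changed by 0.25 ± 0.08 in WT and 0.09 ± 0.08 in dKO, a difference of 0.16 ± 0.11. Stx3 read 10.67, 10.59, 10.62 and 10.70 in WT and 8.61, 8.63, 8.61 and 8.80 in dKO MEFs with AICAR. Its change of 0.25 ± 0.04 in WT was smaller than that with 991, and the difference from dKO (-0.01 ± 0.04) was 0.26 ± 0.06 (adjusted p = 0.00422).

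Slc20a1 moved the other way with AICAR in MEFs, and more in dKO. The WT arrays read 10.60, 10.59, 10.61 and 10.58 and the dKO arrays 10.77, 10.74, 10.70 and 10.75. Both groups lay below all their vehicle arrays, by 0.25 ± 0.03 in WT (adjusted p = 9.66e-09) and by 0.66 ± 0.03 in dKO (adjusted p = 9.26e-19). The positive difference of 0.41 ± 0.04 (adjusted p = 6.12e-09) thus stands for a smaller fall in WT. Gnpda1 changed by 0.11 ± 0.05 in WT and -0.11 ± 0.05 in dKO, neither called, and the difference of 0.22 ± 0.07 was called at an adjusted p of 0.0412. That call was lost under quantile normalization (0.14, adjusted p = 0.203) and when any 1 of 11 arrays was left out, with differences between 0.19 and 0.23 and adjusted p between 0.0509 and 0.112. These were technical replicates 1, 3 and 4 of dKO with AICAR, 1 and 3 of dKO with vehicle, 2, 3 and 4 of WT with AICAR, and 1, 3 and 4 of WT with vehicle.

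Gas2l3 rose with AICAR in both MEF genotypes, by 0.61 ± 0.05 in WT (adjusted p = 6.94e-12) and 0.55 ± 0.05 in dKO (adjusted p = 3.67e-11). Its WT arrays read 10.43, 10.50, 10.44 and 10.51 and its dKO arrays 10.80, 10.80, 10.87 and 10.69, each above its vehicle, and the difference, 0.06 ± 0.07, did not pass (adjusted p = 0.707). The Gas2l3 probe sets differed here. With a MEF mean of 10.335, 1453416_at rose by 0.29 ± 0.04 in WT and 0.13 ± 0.04 in dKO, a difference of 0.167 ± 0.055. The third, 1455980_a_at, rose by 0.69 ± 0.07 and 0.76 ± 0.07, a difference of -0.07 ± 0.09. Tifa rose by 0.41 ± 0.06 in WT (adjusted p = 4.34e-07) and 0.18 ± 0.06 in dKO (adjusted p = 0.00943). Its difference, 0.23 ± 0.08, missed the threshold at an adjusted p of 0.0536 and was called when probe sets were averaged (0.0225), with no intensity trend (0.0264) and with the filter at the median level (0.0266). Tifa has a single probe set, so in these fits its difference stayed at 0.23 and only the p-value moved. It also passed in 4 of the fits without 1 array, those without technical replicate 2 of dKO with 991, dKO with AICAR, WT with AICAR or WT with vehicle. The arrays of dKO with 991 are not part of this difference. Under quantile normalization and with the replicate block the difference was not called. Uap1l1 fell by 0.18 ± 0.04 in dKO MEFs (adjusted p = 0.000293) and changed by -0.06 ± 0.04 in WT. Rhoq changed by -0.06 ± 0.04 and -0.07 ± 0.04 and St3gal4 by 0.12 ± 0.05 and -0.03 ± 0.05 in WT and dKO MEFs, with no call. St3gal4 in WT, at an adjusted p of 0.0509, was called under each other processing tried (adjusted p of 0.0227 to 0.0483 over quantile normalization, the filter, the mean of all probe sets, no trend and the replicate block) and in 4 fits without 1 array (technical replicate 3 of dKO with 991, 1 or 4 of dKO with vehicle, or 2 of WT with vehicle). St3gal4 too has a single probe set, and its WT value stayed at 0.12 under each of these processings. Rhoq was called in WT without technical replicate 2 of WT with vehicle (-0.11, adjusted p = 0.0132). Under quantile normalization Rhoq was called lower in WT (-0.12, adjusted p = 0.023) and in dKO (-0.13, adjusted p = 0.0115), and Uap1l1 in WT (-0.09, adjusted p = 0.0314).

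Hepatocytes gave other directions for several members, at a lower dose of each compound. Mfsd11 ran from 8.36 over a median of 8.69 to 8.88 with AICAR in WT and from 8.24 over 8.38 to 8.52 in dKO. It fell in every preparation, by 0.37 ± 0.06 in WT (adjusted p = 0.00186) and 0.39 ± 0.06 in dKO (adjusted p = 0.00119), and the WT arrays overlapped those with vehicle, with preparation 1 above preparation 2 in both groups. Its probe set 1457836_at gave -0.61 ± 0.11 in WT and -0.48 ± 0.11 in dKO, and 1427815_at gave 0.20 ± 0.07 and 0.05 ± 0.07. Pim1 ran from 9.28 over 9.40 to 9.47 in WT and from 9.51 over 9.59 to 9.72 in dKO, above the vehicle arrays of its genotype. It rose by 0.33 ± 0.06 in WT (adjusted p = 0.00519) and 0.46 ± 0.06 in dKO (adjusted p = 0.000567). Gnpda1 fell by 0.24 ± 0.06 in WT (adjusted p = 0.0256) and by 0.24 ± 0.06 in dKO (adjusted p = 0.0212), with preparation values of -0.26 and -0.21 and of -0.18 and -0.31. Gas2l3 rose by 0.25 ± 0.07 in WT (adjusted p = 0.0329) and changed by 0.20 ± 0.07 in dKO (adjusted p = 0.0788).

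In dKO hepatocytes Rhoq fell by 0.15 ± 0.04 (adjusted p = 0.018), St3gal4 by 0.24 ± 0.07 (adjusted p = 0.0288) and Uap1l1 by 0.23 ± 0.06 (adjusted p = 0.0221). Their WT values were 0.04 ± 0.04, -0.20 ± 0.07 and 0.02 ± 0.06, none called. For no member did limma call a difference between the AICAR effects in WT and dKO hepatocytes, where 3 of the 10 and 1592 of all genes had an unadjusted p under 0.05 and 0.154% of all genes were called larger and 0.154% smaller. Tifa changed by -0.02 ± 0.06 in WT and 0.03 ± 0.06 in dKO hepatocytes. Stx3 changed by -0.13 ± 0.12 and -0.17 ± 0.12, and its 2 dKO preparations went apart, at 0.09 and -0.42. Without dKO preparation 1 the dKO fall of Stx3 was 0.42, which is that of preparation 2 alone.

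These hepatocyte calls rest on 2 preparations a genotype. Leaving out WT preparation 1 left 1 of the 5 WT calls, that of Mfsd11, with adjusted p of 0.0601 for Pim1, 0.0861 for Gas2l3, 0.152 for Slc20a1 and 0.163 for Gnpda1, and leaving out WT preparation 2 removed those of Gas2l3 and Gnpda1. In dKO, the calls of Gnpda1, Rhoq and Uap1l1 were lost without dKO preparation 1 and without dKO preparation 2, and that of St3gal4 without dKO preparation 1. Slc20a1 depended on the probe set. The representative 1448568_a_at changed with AICAR by -0.28 ± 0.07 in WT (adjusted p = 0.0146) and 0.02 ± 0.07 in dKO, whereas 1438824_at changed by -1.53 ± 0.21 and -1.92 ± 0.21. In MEFs 1438824_at changed by 0.07 ± 0.07 in WT and -0.88 ± 0.07 in dKO with AICAR. For Stx3, 1425530_a_at changed by 0.67 ± 0.08 in WT and 0.49 ± 0.08 in dKO MEFs, and 1434559_at by 0.06 ± 0.07 and -0.33 ± 0.07.

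Levels before treatment were compared between genotypes with vehicle, using vehicle arrays that the choice of members used too. In dKO MEFs 3 members were called higher and 5 lower than in WT, beside shares of 28.0% and 19.2% of all genes. Fibroblast markers moved with genotype too: 7 of the 8 were called lower in dKO MEFs and 0 higher, and their mean per gene lay between 11.37 and 11.42 in WT and between 9.50 and 9.56 in dKO vehicle arrays. Col1a2 (-4.68 ± 0.07) and Lox (-4.21 ± 0.05) differed most, and Fn1 (-0.01 ± 0.02) was not called. The 4 cholangiocyte markers measured were all called lower, with a mean per gene between 7.28 and 7.35 in WT and between 6.60 and 6.74 in dKO. The part of these shifts in the differences of the members was not tested. Stx3 was lower in dKO MEFs, with a log2 difference of -1.73 ± 0.04, a ratio of 0.302 (adjusted p = 2.12e-25), and its 4 probe sets gave -1.26 ± 0.09 to -1.73 ± 0.04. Slc20a1 was 0.55 ± 0.03 higher (adjusted p = 2.4e-17), Gas2l3 0.38 ± 0.05 higher and Mfsd11 0.23 ± 0.04 higher in dKO. Gnpda1 (-0.26 ± 0.05), St3gal4 (-0.25 ± 0.05), Rhoq (-0.25 ± 0.04) and Pim1 (-0.21 ± 0.06) were lower. With the mean of all probe sets Mfsd11 (0.03) and Pim1 (-0.11) were no longer called. Uap1l1 differed by 0.08 ± 0.04 (adjusted p = 0.0754) and was called without technical replicate 2 or 3 of WT with vehicle, at 0.11 and 0.10, with the mean of all probe sets (0.20, adjusted p = 0.0122) and with the filter at the median level. Tifa differed by 0.12 (adjusted p = 0.0716) and was called with the filter, the mean of all probe sets or no intensity trend (adjusted p of 0.0304 to 0.0401), while quantile normalization gave -0.02.

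In hepatocytes no member and 0% of all genes were called in either direction by limma, on 4 vehicle means, where 3 of the 10 and 846 of all genes had an unadjusted p under 0.05. These calls changed with how the preparations of the genotypes were paired, since preparations of the same number deviated in opposite directions in WT and dKO. Uap1l1 arrays ran from 8.98 to 9.34 in WT and from 7.30 to 7.79 in dKO with vehicle, with nothing between. The difference was -1.45 ± 0.11, a ratio of 0.367 (adjusted p = 0.194). Without dKO preparation 1 it was -1.55 and without dKO preparation 2 -1.34. Each of these rests on 1 dKO mean, so the spread between dKO preparations is not measured there. The second probe set gave -0.07 ± 0.06. Stx3 differed by -0.42 ± 0.09 and Tifa by -0.39 ± 0.10. The summed level of the 8 Kupffer cell markers moved with genotype as well: its mean per gene lay between 8.09 and 8.65 in WT and between 7.68 and 8.05 in dKO arrays with vehicle. With 991 it lay between 8.24 and 8.60 in WT, within the WT vehicle range. Its part in the genotype differences was not tested.

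Close relatives of the members, paired with them from knowledge of the families, were looked at in the same fits, and 13 of 14 were measured. In WT hepatocytes limma called none of the 13 with 991, where 3.72% of all genes were called higher and 2.36% lower. Of the 13, 2 had an unadjusted p under 0.05, as had 3874 of all 18193 genes. The log2 changes of the 13 ran from -0.18 (Gas2l1) to 0.12 (St3gal3). In WT MEFs 5 of the 13 were called higher and 2 lower, beside 14.0% and 5.65% of all genes. Gnpda2, the second glucosamine-6-phosphate deaminase gene, rose by 0.31 ± 0.04 in WT and by 0.26 ± 0.04 in dKO MEFs, and its genotype difference of 0.05 ± 0.06 was not called, whereas in WT hepatocytes it changed by 0.06 ± 0.06. Uap1, which makes UDP-N-acetylglucosamine, rose by 0.26 ± 0.04 in WT MEFs and changed by -0.02 ± 0.06 in WT hepatocytes. Slc20a2, the other PiT transporter gene, was the relative whose WT response to 991 was called larger than the dKO one in MEFs, by 0.30 ± 0.07 (adjusted p = 0.00847), and changed by 0.02 ± 0.05 in WT hepatocytes. Pim3 rose by 0.20 ± 0.04 and Stx4a by 0.17 ± 0.04 in WT MEFs, and Pim2 and Stx2 gave -0.01 ± 0.08 and 0.10 ± 0.06. St3gal6 and Unc93b1 fell there, by 0.27 ± 0.08 and 0.30 ± 0.09. Their mean levels over the MEF arrays were 7.88 and 5.84, the latter below the median value of every MEF array.

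**Figure D5:**
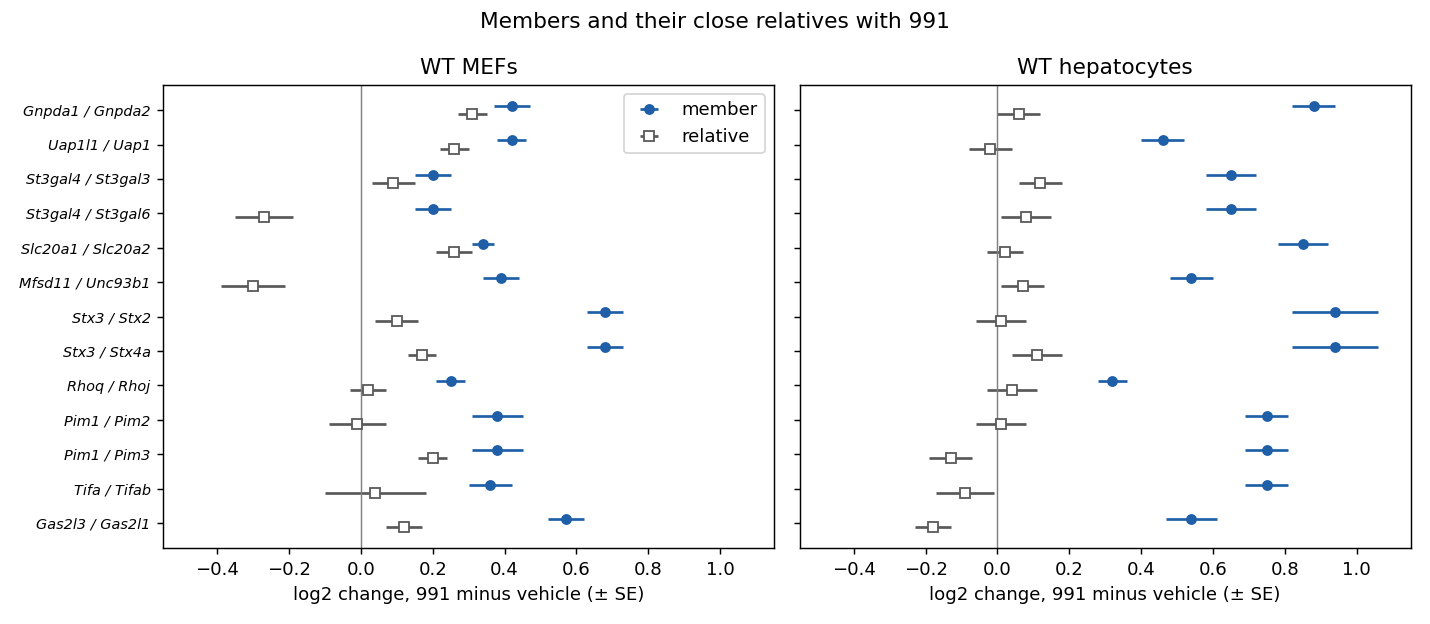
Log2 change with 991 against vehicle (x axis, ± SE) of each member (filled) and its relative (open square) in WT MEFs and WT hepatocytes; the member values chose the members. Relatives run from -0.30 to 0.31 in MEFs and from -0.18 to 0.12 in hepatocytes.

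Over 9 lists of the members' families and pathways, without the members, 105 of 113 genes were measured. In WT hepatocytes 6 of the 105 were called higher and 5 lower with 991, which is 5.71% and 4.76%, beside 3.72% and 2.36% of all genes. In WT MEFs 22 were called higher and 9 lower, which is 21.0% and 8.57%, beside 14.0% and 5.65% of all genes. For the genotype difference 7 were called larger and 3 smaller in MEFs, which is 6.67% and 2.86%, beside 4.37% and 0.912% of all genes. In hepatocytes limma called none of the 105 for it, where 0.330% of all genes were called larger and 0.0824% smaller. There 17 of the 105 and 1416 of all 18193 genes had an unadjusted p under 0.05. The hexosamine and sialic acid list holds 17 genes, of which 9 were called higher and 0 lower with 991 in WT MEFs, at a median of 0.17. In dKO MEFs 2 were called higher and 0 lower, beside 1.88% and 1.58% of all genes. For the genotype difference in MEFs 2 were called larger and 0 smaller. AICAR called 12 of the 17 higher and 2 lower in WT MEFs, beside 19.6% and 15.5% of all genes. In dKO MEFs it also called 12 higher and 2 lower, beside 20.4% and 19.8%. With 991 in WT MEFs, Amdhd2, which deacetylates N-acetylglucosamine-6-phosphate, rose by 0.34 ± 0.06 and Gnpda2 by 0.31 ± 0.04. In WT hepatocytes Renbp (0.33 ± 0.06) and Nagk, the N-acetylglucosamine kinase gene (0.31 ± 0.06), were called higher and Pgm3 (-0.30 ± 0.08) lower, and the median was -0.02.

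Of the 13 other syntaxin genes, 4 were called higher and 1 lower with 991 in WT MEFs, beside 14.0% and 5.65% of all genes. Stx8, a SNARE of late endosomes, gave 0.25 ± 0.05 and Stx19 -0.30 ± 0.10. None of the 13 was called in WT hepatocytes, where 3.72% of all genes were called higher and 2.36% lower. The sialyltransferase gene St8sia4 rose by 0.38 ± 0.07 in WT hepatocytes, while St6galnac4 rose by 0.30 ± 0.06 and St6galnac5 fell by 0.32 ± 0.08 in WT MEFs. In the list of Pim kinases and STAT targets, Stat3 rose by 0.51 ± 0.08 in WT hepatocytes, and Socs2, a feedback inhibitor of STAT signalling, fell there by 0.58 ± 0.06 and rose by 0.20 ± 0.05 in WT MEFs. In the list from Tifa to NF-kB, Ikbkg and Ikbkb, subunits of the kinase that frees NF-kB, rose by 0.32 ± 0.06 and 0.18 ± 0.05 in WT MEFs. Nfkbia, the inhibitor of NF-kB, fell by 0.34 ± 0.08 in WT hepatocytes. The major facilitator gene Mfsd1 rose by 0.23 ± 0.04 in WT MEFs and 0.20 ± 0.05 in WT hepatocytes. None of the 3 other genes of the Gas2 family was called in WT cells with 991.

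Among 7579 other genes at or above the median level in both cell types, the 8 whose pattern was most like the mean of the members over the 12 group means, each centred within its cell type, were Ankrd12 (Pearson r = 0.972), Gga2 (0.951), Atp6v1b2 (0.938), Flcn (0.938), Ptpn23 (0.932), Dnmt3a (0.929), Sntb2 (0.928) and Stat5a (0.927). The points share vehicle arrays and preparations, and the members' own pattern was chosen for its rise with 991, so these values are a description. Of the 8, 3 met the conditions that chose the members: Ankrd12, Atp6v1b2 and Flcn. Gga2, which encodes a clathrin adaptor of the trans-Golgi network, rose with 991 by 0.32 in WT MEFs and 0.41 in WT hepatocytes, and Dnmt3a, a DNA methyltransferase gene, by 0.17 and 0.79. Among the members, Gnpda1 lay closest to the mean of the other 9 over the 12 groups (r = 0.937) and Gas2l3 farthest (0.368). Within the 6 MEF groups, Gas2l3 (-0.214) and Slc20a1 (-0.264) had a negative r with the mean of the others. Within the 6 hepatocyte groups every member had a positive r, from 0.515 for Pim1 to 0.998 for Stx3. All r values here, those of the 8 genes included, take in differences between genotypes as well as responses to treatment. Means were not scaled, so members with a large genotype difference with vehicle weigh most, as Stx3 in MEFs (-1.73) and Uap1l1 in hepatocytes (-1.45). Gas2l3 (0.38) and Slc20a1 (0.55) were higher in dKO than in WT MEFs with vehicle.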

How the data were processed

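RNA of 82 arrays, 23 of MEFs and 59 of hepatocytes, was analysed. What the authors deposited is a log2 intensity for each probe set and array, made with RMA and Partek per the submitters' processing notes, in versions not given in the sources used here. The series' design text names 1 array of WT MEFs with 991 and 1 of dKO hepatocytes with vehicle that the authors excluded as outliers. Whether both cell types were normalized together is not given, so no test crosses cell types. Of 45037 probe sets that are not controls, 34945 have 1 gene symbol, 932 several and 9160 none here. A gene is represented by its probe set of highest mean in that cell type, and no filter on dim genes was applied.

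Group means were fitted in R 4.3.3 with limma 3.58.1, by lmFit and contrasts.fit and then eBayes, whose prior variance followed the intensity, and standard errors are the moderated ones. In MEFs each array was a sample, which left 17 residual degrees of freedom. In hepatocytes technical replicates were averaged per preparation, and a fixed block held the preparation of each genotype, since the 3 treatments of a preparation deviated together (correlations of 0.502 to 0.845 over 6 pairs). That left 4 residual degrees of freedom, and 2 for the comparison of genotypes. Tables were made with Python 3.11.15, pandas 2.3.3 and matplotlib 3.10.9, and the fits were tested on simulated data.

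The members, gene lists and relatives were chosen with earlier results of these data known. Besides them the text names, by rule, the 8 genes most like the members' mean and up to 2 called genes a list with the largest 991 effect in WT cells of a cell type; Pgm3, Piga, Bhlhe40 and the genes named from the other 14 were named after their values were seen. The genes of 1 list are not reported here singly. Alternatives were quantile normalization, a filter at the median level, averaging a gene's probe sets, no intensity trend, a replicate block in MEFs, its removal in hepatocytes, hepatocyte arrays entered singly, and leaving out each MEF array or preparation. Precision is limited by how many arrays and preparations there are.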

Additional observations from a re-analysis of the deposited data

Results flagged for a closer look

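Of 110 groups of 4 to 10 arrays, 7 held 1 array far from the others, and chance gives about 5% of groups. In MEFs these were the highest Mfsd11 value in WT with AICAR (9.28, the others between 9.21 and 9.22), the highest Pim1 value in dKO with AICAR (8.04, the others 7.90 to 7.91), and for Stx3 the lowest in dKO with 991 (8.70, the others 8.81 to 8.83) and the highest in dKO with AICAR (8.80, the others 8.61 to 8.63). In dKO hepatocytes they were the highest Stx3 value with 991 (9.91, the others 9.56 to 9.73), the highest Gnpda1 value with AICAR (8.59, the others 8.17 to 8.39) and the lowest Uap1l1 value with 991 (7.21, the others 7.57 to 7.79).

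The AICAR effect in MEFs differed between genotypes, as the WT effect minus the dKO effect on the log2 scale, for Mfsd11 (0.41), Slc20a1 (0.41), Pim1 (0.35), Stx3 (0.26) and Gnpda1 (0.22). In WT cells with AICAR, Mfsd11 rose by 0.34 in MEFs and fell by 0.37 in hepatocytes. Of its other probe sets, 1457836_at gave 0.60 ± 0.07 in MEFs and -0.61 ± 0.11 in hepatocytes. The other, 1427815_at, gave 0.10 ± 0.09 and 0.20 ± 0.07. Gnpda1 gave 0.11 in MEFs, which was not called, and -0.24 in hepatocytes. The difference between the cell types was not tested, and doses differed.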

How the results depend on the processing

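Calls of AICAR effects in hepatocytes depended most on how preparations were treated. With no replicate block for the preparation, 1 member was called in WT and 1 in dKO, where 5 and 6 were called with it. Of all 18193 genes, 724 and 1093 were called without the block and 3002 and 3234 with it. With every array as a sample, 3 members were called for the difference in AICAR effect and 6 for dKO against WT, beside 2317 and 2288 of all genes. That setting treats technical replicates of a preparation as independent samples. Leaving out single preparations removed AICAR calls in WT and in dKO, as given above. For the genotype comparison it leaves a genotype with 1 mean. For Slc20a1 the AICAR value in dKO hepatocytes, 0.02, turned to -0.56 with the mean of all probe sets (adjusted p = 0.00318), which takes in 1438824_at with its change of -1.92. For 991, which chose the members, the hepatocyte genotype difference was called for 6 of the 10 with the mean of all probe sets, 4 without an intensity trend and 0 with no replicate block.

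Preparations of the same number in WT and dKO deviated in opposite directions (correlations of -0.812 to -0.66 over 9 pairs), and the sources used here do not say whether the numbers mark shared preparations. In settings chosen after seeing the data, a replicate block by preparation number called 0 members for dKO against WT hepatocytes, and the crossed replicate block called 6 members and 1462 genes. In MEFs the technical replicate numbers paired no samples (median correlation 0.016). The replicate block called 7, 4, 5 and 8 members for AICAR in WT, AICAR in dKO, their difference and dKO against WT, beside 6, 4, 5 and 8 without it. Of all genes it called 6522, 7425, 2257 and 8666, beside 6376, 7318, 2203 and 8597 without it. Counts in MEFs stayed within 1.5 times the main ones under every alternative run for AICAR and genotype, among them those leaving out each array (6 to 8, 4 to 4, 4 to 6 and 8 to 9).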
